A study of Mus musculus with 24 samples.

Results

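Secretagogue receptors are the cell-surface receptors through which nerves and extracellular ATP make the acinar cells of the lacrimal gland release tear protein and fluid. The set described here holds 9 genes: the muscarinic acetylcholine receptors Chrm1 and Chrm3, the α1-adrenergic receptors Adra1a and Adra1b, the β1-adrenergic receptor Adrb1, the vasoactive intestinal peptide (VIP) receptors Vipr1 and Vipr2, the ATP-gated ion channel P2rx7 and the nucleotide receptor P2ry2. A probe was counted as a member if the array annotation gave it 1 of these symbols and no other. Of the 9 genes, 7 had a probe, and these held 13 of the 40130 probes on the arrays. CodeLink (CL) arrays carried 6 of the probes and Affymetrix (Affy) arrays 7. Each of 6 genes had 1 probe on each platform, Chrm1 had a probe on Affy alone, and no probe was matched to Adra1a or Adrb1.

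In many cells, Chrm3, Chrm1, the α1-adrenergic receptors and P2ry2 act through the G protein Gq and phospholipase C. This enzyme releases inositol trisphosphate, raises cytosolic calcium and activates protein kinase C. Whether the α1-adrenergic receptors take this route in the acinar cell was not tested. The VIP receptors and Adrb1 act through Gs and adenylyl cyclase, which makes cAMP. P2rx7 opens on binding ATP and lets calcium in directly. Parasympathetic nerves release acetylcholine and VIP, and sympathetic nerves release noradrenaline.

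Exorbital lacrimal glands came from female mice of 2 autoimmune strains used as models of Sjögren syndrome. NOD mice develop spontaneous autoimmunity, and MRL/lpr mice carry the lpr mutation of Fas in the treated and in the placebo groups alike. The 4 groups were NOD mice given testosterone (T), NOD mice given placebo, MRL/lpr mice given T and MRL/lpr mice given placebo, each with 3 pools on each platform, 24 arrays in all. The study's methods describe 3 preparations for each treatment and name no separate mice for the 2 platforms. A result seen on both platforms is therefore not a result in separate animals. Subcutaneous pellets held 10 mg T or vehicle only. The labels give 21 days of treatment for NOD and 18 days for MRL/lpr mice, while the study's methods give 20 to 21 days. NOD mice were 21 weeks old and MRL/lpr mice about 17 to 18 weeks old. A pool held the glands of 2 to 4 NOD mice or of 6 MRL/lpr mice. Strain, age, pool size and labelled duration therefore cannot be told apart in a comparison of NOD with MRL/lpr. In RNA of whole glands, fewer cells of a type and less RNA per cell cannot be told apart either.

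A CL signal is the spot intensity relative to its array, and a spot that the scanner software marked as near background has only an upper bound. Between 47.2% and 61.0% of the probes were so marked on a CL array. Affy signals were scaled to a trimmed mean of 500, and a signal under the floor of 70.5 is treated here as near background, which held for 28.5% to 42.0% of the probe sets on an array. Pools of 1 group correlated at 0.915 to 0.977 on CL and 0.911 to 0.987 on Affy. MRL/lpr placebo pool 1 stood apart on both platforms through salivary transcripts. The salivary secretory gene Bpifa2 read 2239 on CL and 59050 on Affy in that pool, against at most 2.99 and 86.3 in the other 11 pools, and the amylase gene Amy1 read 406 on CL against at most 5.10. For the receptors, values that rest on this pool are therefore also given without it. Every acinar cell marker with a probe was above background in some pool, 8 of 8 on CL and 10 of 10 on Affy, whereas 0 of 6 markers of nerve and glia were above background in any CL pool and 7 of 7 reached the floor in some Affy pool.

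Most of the receptors lay near the arrays' lower limit. On CL, 24 of the 72 receptor spots were above background, and all 24 belonged to Adra1b and P2rx7, each of which was above background in 12 of 12 pools. The spots of Chrm3, Vipr1, Vipr2 and P2ry2 were near background in every CL pool. On Affy, 13 of the 84 receptor signals reached the floor, and Adra1b reached it in none. No gene was thus measured above the limit by both platforms in all pools, and only Adra1b and P2rx7 on CL gave levels that could be compared across the 4 groups. Of these, P2rx7 lay close to the limit in some pools.

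Adra1b encodes the α1B-adrenergic receptor, which couples noradrenaline to Gq. Its CL signal was 1.61, 1.65 and 2.54 in NOD T pools, against 2.11, 3.04 and 2.24 in NOD placebo pools. It was 1.77, 2.19 and 2.83 in MRL/lpr T pools, against 2.55, 3.11 and 2.78 in MRL/lpr placebo pools. In each strain the T pools lay lower on average, and 1 T pool stood among the placebo pools. The means were 1.94 ± 0.527 in NOD T and 2.47 ± 0.503 in NOD placebo pools, and 2.26 ± 0.533 in MRL/lpr T and 2.82 ± 0.281 in MRL/lpr placebo pools (SD, n = 3 each). From high to low the groups ran MRL/lpr placebo, NOD placebo, MRL/lpr T and NOD T, and neighbours in that order overlapped. The log2 difference with T was -0.36 in NOD (95% interval -0.93 to 0.20, adjusted p = 0.391) and -0.34 in MRL/lpr mice (95% interval -0.90 to 0.22, adjusted p = 0.473) by limma with Benjamini-Hochberg adjustment over all probes tested. These differences are 1.29-fold and 1.26-fold lower signals, and neither passed the test. Leaving out 1 pool moved the NOD difference between -0.58, without NOD T pool 3, and -0.20, without NOD placebo pool 2. The MRL/lpr difference moved between -0.51, without MRL/lpr T pool 3, and -0.17, without MRL/lpr T pool 1, and without MRL/lpr placebo pool 1 it was -0.41 (limma, adjusted p = 0.506). The difference between the effects of T in NOD and in MRL/lpr mice was -0.03, with a 95% interval of -0.82 to 0.77, so that the data leave room for a difference of either sign.

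P2rx7 encodes a channel that ATP opens, found on lacrimal acinar cells and on many leukocytes. Its CL signal was 1.36, 1.38 and 1.40 in NOD T pools, against 1.93, 1.94 and 2.45 in NOD placebo pools. All NOD T pools lay below all NOD placebo pools, and they differed from each other by less than the pools of any other group. The lowest signal above background was 1.14, 0.837 and 1.05 on the NOD T arrays and 1.31, 1.39 and 1.46 on the NOD placebo arrays. Among NOD pools, P2rx7 thus lay closest to this limit in T pools 1 and 3. The limit differed between the groups, and a difference relative to that limit was not tested. The signal was 1.37, 1.55 and 2.00 in MRL/lpr T pools, against 2.76, 1.69 and 1.74 in MRL/lpr placebo pools, and these groups overlapped. The limit was 1.27, 1.04 and 1.61 on the MRL/lpr T arrays and 0.939, 0.9985 and 1.01 on the MRL/lpr placebo arrays, so MRL/lpr T pool 1 also lay close to it. The highest of the 12 values came from MRL/lpr placebo pool 1, the pool with salivary transcripts. The means were 1.38 ± 0.0229 in NOD T and 2.11 ± 0.298 in NOD placebo pools, and 1.64 ± 0.327 in MRL/lpr T and 2.07 ± 0.605 in MRL/lpr placebo pools (SD, n = 3 each). From high to low the groups ran NOD placebo, MRL/lpr placebo, MRL/lpr T and NOD T, and neighbours in that order overlapped.

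The P2rx7 difference with T in NOD mice was -0.60 on the log2 scale (SE 0.24, 95% interval -1.13 to -0.08), a signal 1.52-fold lower. It had an unadjusted p of 0.0279 by limma and an adjusted p of 0.118, and so did not pass the threshold of 0.05. Across the alternatives run, the adjusted p lay between 0.0651 and 0.264. The methods' t-test gave an unadjusted p of 0.0135 for it, and 0.102 after Benjamini-Hochberg adjustment. In MRL/lpr mice the difference with T was -0.31 (limma, 95% interval -0.84 to 0.21, adjusted p = 0.476), and without MRL/lpr placebo pool 1 it was -0.08 (limma, adjusted p = 0.915). The effects of T in the 2 strains differed by -0.29 (limma, 95% interval -1.03 to 0.45, adjusted p = 0.659). NOD and MRL/lpr pools differed by 0.06 under placebo and by -0.23 under T, and neither difference passed the test (limma, adjusted p = 0.933 and 0.614). Without MRL/lpr placebo pool 1 the placebo difference was 0.29 (limma, adjusted p = 0.579), the effects of T differed by -0.52 between strains (limma, adjusted p = 0.436) and the adjusted p with T in NOD mice was 0.0843 (limma).

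**Figure D1:**
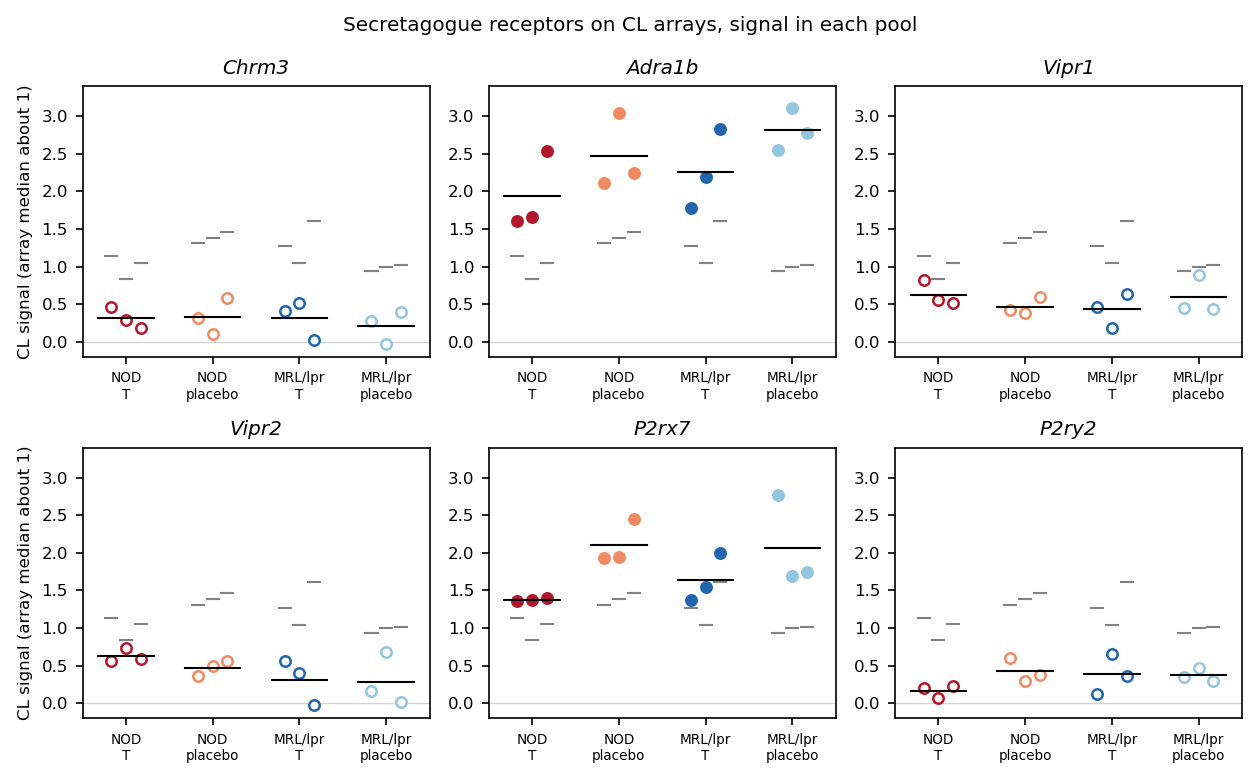
CL signal of the 6 receptor probes in each pool of the 4 groups. Filled points were above background, open points were near background, black bars are group means and grey ticks mark the lowest signal above background on each array. Only Adra1b and P2rx7 have filled points, and for P2rx7 the NOD T pools at 1.36 to 1.40 lie below the NOD placebo pools at 1.93 to 2.45.

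**Figure D2:**
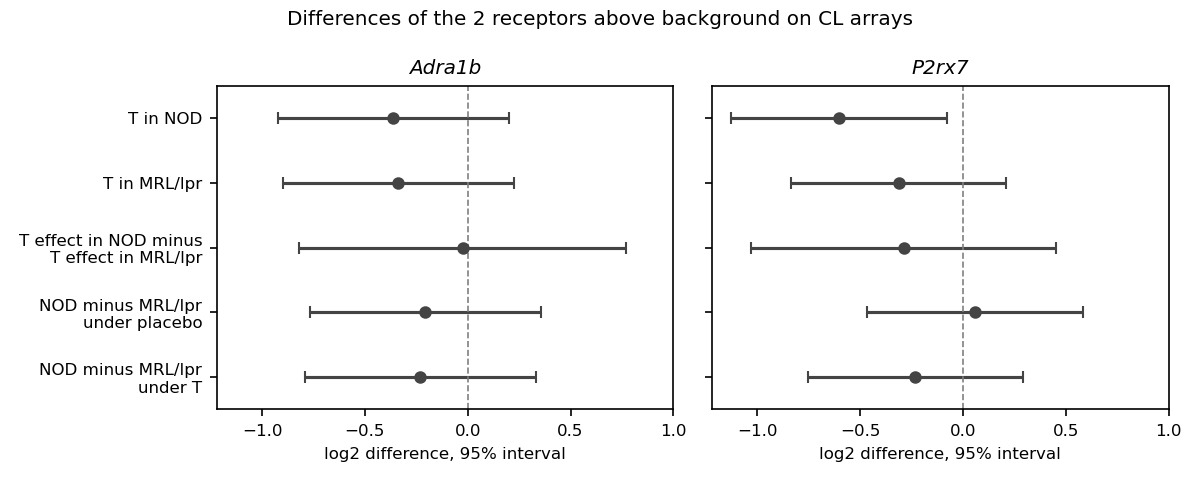
Differences in log2 CL signal of Adra1b and P2rx7 for the 5 comparisons, as points with 95% intervals from limma. The interval excludes 0 only for P2rx7 with T in NOD mice, at -1.13 to -0.08, whose adjusted p was 0.118.

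The other 4 receptors on CL have values that only bound their levels from above. Chrm3, the main muscarinic receptor of the acinus, read 0.178 to 0.464 in NOD T pools against 0.0992 to 0.582 in NOD placebo pools, and 0.0242 to 0.512 in MRL/lpr T pools against -0.035 to 0.402 in MRL/lpr placebo pools. Vipr1 read 0.510 to 0.816 in NOD T pools against 0.382 to 0.598 in NOD placebo pools, and 0.187 to 0.637 in MRL/lpr T pools against 0.434 to 0.893 in MRL/lpr placebo pools. Vipr2 read -0.0279 to 0.556 in MRL/lpr T pools against 0.011 to 0.686 in MRL/lpr placebo pools, and P2ry2 read 0.127 to 0.657 in MRL/lpr T pools against 0.301 to 0.464 in MRL/lpr placebo pools. The lowest signal that counted as above background on any CL array was 0.837. All these spots were marked near background, so no fold change is given for them.

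Some of these dim values were separated between groups. Vipr2 read 0.559, 0.737 and 0.591 in NOD T pools, all above the 0.367, 0.502 and 0.556 in NOD placebo pools, and P2ry2 read 0.197, 0.0643 and 0.227 in NOD T pools, all below the 0.606, 0.291 and 0.372 in NOD placebo pools. With P2rx7, 3 of the 6 receptors on CL had NOD T pools that did not overlap NOD placebo pools, beside 29.5% of all CL probes. Under T, only Vipr2 separated the strains, with NOD above MRL/lpr pools at 0.556, 0.409 and -0.0279, beside 25.8% of all probes. No receptor separated T from placebo in MRL/lpr mice or NOD from MRL/lpr mice under placebo, where 29.2% and 29.1% of all CL probes did.

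On Affy the receptors mostly lay under the floor, and single pools carried the signals that reached it. Chrm1, which in many glands works beside Chrm3, read 41.7, 23.0 and 15.9 in NOD T pools, against 14.4, 166 and 14.6 in NOD placebo pools. Chrm1 read 9.47, 44.6 and 36.1 in MRL/lpr T pools, against 195, 9.32 and 7.74 in MRL/lpr placebo pools. Each placebo group thus held 1 pool above the floor, and in MRL/lpr mice it was pool 1, the pool with salivary transcripts, without which all MRL/lpr signals of Chrm1 lay under the floor. Chrm3 read 22.0, 21.3 and 46.7 in NOD T pools, against 12.2, 99.7 and 124 in NOD placebo pools. Chrm3 read 56.8, 194 and 56.5 in MRL/lpr T pools, against 36.7, 9.32 and 84.1 in MRL/lpr placebo pools. All NOD T pools were lower than all MRL/lpr T pools for Chrm3, a difference that did not pass the test (log2 difference -0.49 with values raised to the floor, limma, adjusted p = 0.401).

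The VIP receptors were no clearer on Affy. Vipr2 read 38.2, 57.0 and 75.8 in NOD T pools, against 11.1, 72.6 and 6.67 in NOD placebo pools. Vipr2 read 110.5, 134 and 36.1 in MRL/lpr T pools, against 66.1, 6.21 and 15.5 in MRL/lpr placebo pools. Its difference with T in MRL/lpr mice was 0.52 (limma, unadjusted p = 0.0482, adjusted p = 0.23), and 1 T pool lay inside the placebo range. The probe set passed the filter on dim probes only through its MRL/lpr T mean of 93.4, so this p is not independent of the filter. Without MRL/lpr placebo pool 1, the T pools lay above both remaining placebo pools, which were under the floor, and the difference was again 0.52 (limma, unadjusted p = 0.0771, adjusted p = 0.343). Vipr1 reached the floor in 1 of 12 pools, MRL/lpr placebo pool 2, at 74.6, and its other signals ran between 2.0 and 69.9.

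The purinergic and adrenergic receptors seen on CL were dim on Affy. P2rx7 read 25.5, 38.3 and 3.89 in NOD T pools, against 103, 14.5 and 60.0 in NOD placebo pools. P2rx7 read 39.5, 34.9 and 67.7 in MRL/lpr T pools, against 66.1, 18.6 and 44.2 in MRL/lpr placebo pools. Only 1 of these 12 signals reached the floor, so Affy gives no second measurement of the P2rx7 difference seen on CL. P2ry2 read 6.31, 19.4 and 20.3 in MRL/lpr T pools, all below the 44.1, 180.2 and 31.0 in MRL/lpr placebo pools (limma, adjusted p = 0.41, and 0.281 without MRL/lpr placebo pool 1), and its NOD placebo pools at 10.6 to 16.6 also lay below the MRL/lpr placebo pools (limma, adjusted p = 0.532, and 0.366 without that pool). In NOD T pools P2ry2 read 3.67 to 20.8. Of these P2ry2 signals only that of MRL/lpr placebo pool 2 reached the floor, and of the group means only that of MRL/lpr placebo, at 85.1, lay above it. Adra1b, with no signal above 52.1, was lower in all MRL/lpr T pools, at 3.16 to 7.75, than in all MRL/lpr placebo pools, at 29.4 to 32.1, and than in all NOD T pools, at 18.7 to 47.5, but both groups of each pair lay under the floor and were not tested. In all, pools of the groups did not overlap for 2 of the 7 receptors with T in MRL/lpr mice, 1 of 7 between strains under placebo and 2 of 7 between strains under T, beside 24.1%, 22.7% and 23.8% of all Affy probe sets. None of the 7 separated T from placebo in NOD mice, where 23.1% of all probe sets did.

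**Figure D3:**
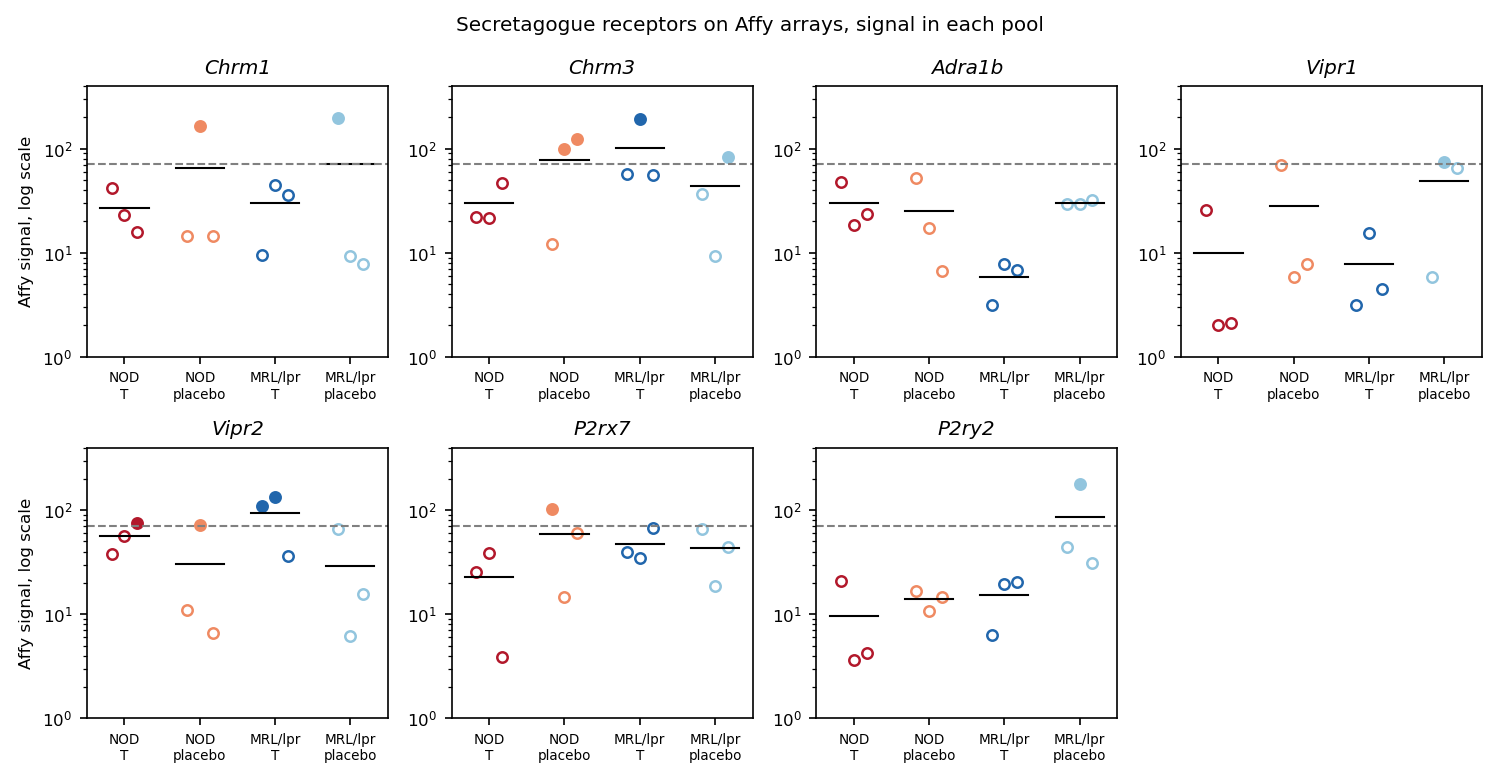
Affy signal of the 7 receptor probe sets in each pool of the 4 groups, on a log axis. The dashed line is the floor of 70.5, and open points lie under it. Of the 84 points 13 lie at or above the line, none of them for Adra1b.

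After the filter on dim probes, 4 receptors were tested on CL (Adra1b, P2rx7, Vipr1 and Vipr2) and 4 on Affy (Chrm1, Chrm3, Vipr2 and P2ry2). On Affy, Vipr2 passed the filter only through its MRL/lpr T mean of 93.4. Chrm1 and P2ry2 passed only through their MRL/lpr placebo means of 70.8 and 85.1, and Vipr2 on CL only through its NOD T mean of 0.629. For these probes, a comparison that involves the group that passed is not independent of the filter. By limma at an adjusted p under 0.05, 0 of the 4 changed in any of the 5 comparisons on either platform. On CL the share of all probes called was 16.5% with T in NOD mice, 12.5% with T in MRL/lpr mice, 8.04% for the difference between these effects, 9.54% between strains under placebo and 12.4% between strains under T. On Affy the shares were 9.22%, 6.9%, 3.92%, 5.34% and 10.6% in the same order. The number of probes behind these shares depended on single pools. Left out one at a time, they moved the Affy calls between 653 (MRL/lpr placebo pool 2) and 2290 (NOD T pool 1) with T in MRL/lpr mice, where 1234 were called with all pools. The same 2 pools gave 438 and 1265 Affy calls for the difference between the effects of T, where 701 were called, and 570 and 1597 between strains under placebo, where 955 were called. With T in NOD mice the 1649 Affy calls became 1044 without NOD placebo pool 2, and between strains under T the 1898 became 1209 without MRL/lpr T pool 3. On CL, the 1299 calls between strains under placebo became 803 and 836 without MRL/lpr placebo pools 1 and 2, and no other CL count moved by over 1.5 times. At shares of this size, few or no calls among 4 probes stand close to the background. At an unadjusted limma p under 0.05 there was 1 receptor on CL, P2rx7 with T in NOD mice, and 1 on Affy, Vipr2 with T in MRL/lpr mice, which did not reach it without MRL/lpr placebo pool 1. Without that pool P2ry2 on Affy did reach it, with T in MRL/lpr mice and between strains under placebo (limma, unadjusted p = 0.0491 for each, adjusted p = 0.281 and 0.366). Both comparisons involve the group through which P2ry2 passed the filter. The methods' t-test gave 1 on CL, also P2rx7, and 0 on Affy, and after Benjamini-Hochberg adjustment it gave 0. The adjusted p values over the 5 comparisons ran between 0.118 and 0.976 on CL. The median log2 difference of the tested receptors with T on CL was -0.08 in NOD and -0.24 in MRL/lpr mice, where the medians over all genes were -0.09 and -0.04.

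The genes whose CL levels followed these receptors most closely across the 12 pools were found by Pearson correlation among 8910 genes, which share arrays and groups and are given as a description. For Adra1b they were Tnfsf10 (r = 0.933), the gene of the death ligand TRAIL, Khdrbs1 (0.899), which encodes an RNA-binding protein, and Tmem119 (0.898). For P2rx7 they were Lrrc3 (0.885), the odorant receptor gene Olfr1495 (0.880) and Rpl13a (0.876), which encodes a ribosomal protein. The other tested receptors had 5 to 11 of their 12 values at the floor, and their closest correlations, at 0.780 to 1.0, rest on the few pools that were not.

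Further genes of nerve and nucleotide signalling were counted from lists of receptors, ligand genes, G protein effectors and desensitising proteins. Each gene was taken by its brightest probe. A call is said to have been lost where its adjusted p reached 0.05 without the pool named or under another setting named. Among the settings, a replicate block takes the pool number as a factor, normexp is another background correction of the raw CL intensities, and an added floor is added to every signal in place of raising low signals to it. With Affy signals taken as deposited, 10 of the 19 Affy calls on the genes named were lost, namely both strain calls of Tac1, both calls of Itpr3, both of Stim1, those of Npy, Adcy2 and Rgs16 and that of Prkcb between strains under placebo. With T in NOD mice, 8.59% of all genes were called higher and 8.56% lower on CL, and 6.52% higher and 4.05% lower on Affy. With T in MRL/lpr mice, 6.62% were called higher and 6.45% lower on CL, and 3.56% higher and 3.87% lower on Affy. Of the 10 other muscarinic, adrenergic and VIP or PACAP receptors, 2 were tested on CL and 1 on Affy, and 0 were called by limma in any comparison. At an unadjusted limma p under 0.05 there was only Chrm4 on CL, in both strain comparisons, and the methods' t-test gave 1 gene on CL and 1 on Affy, both between strains under placebo.

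Among the 17 other purinergic receptors, which bind ATP, other nucleotides or nucleotide sugars, 9 were tested on CL and 7 on Affy. On CL 1 rose and 2 fell with T in NOD mice, and 1 rose with T in MRL/lpr mice, while on Affy 0 of 7 were called by limma with T in NOD mice (3 at an unadjusted p under 0.05, and 0 by the methods' t-test). P2ry14, which encodes the receptor for UDP-glucose and couples to Gi, was the gene that rose. Its CL signal was 3.41, 4.80 and 5.46 in NOD T pools, against 1.46, 1.67 and 1.22, all near background, in NOD placebo pools. It was 1.83, 1.89 and 2.07 in MRL/lpr T pools, against 2.85, 2.76 and 2.15 in MRL/lpr placebo pools. All T pools were higher than placebo pools in NOD mice and lower in MRL/lpr mice. The signal was at least 2.93-fold higher with T in NOD mice (log2 difference 1.64, SE 0.23, limma, adjusted p = 0.000368), and the difference in MRL/lpr mice did not pass the test (-0.41, limma, adjusted p = 0.298). The 2 effects differed by 2.05 on the log2 scale (limma, adjusted p = 0.00227), and NOD T pools were 2.32-fold higher than MRL/lpr T pools (limma, adjusted p = 0.00398). These 3 calls held under every alternative run. NOD placebo pools were also at least 1.68-fold lower than MRL/lpr placebo pools (limma, adjusted p = 0.0391), a call lost under 12 of 23 alternatives. It was lost without NOD T pool 2, any NOD placebo pool, MRL/lpr T pool 1 or 2 or MRL/lpr placebo pool 1 or 2 (limma, adjusted p = 0.0501 to 0.142), and with the floor halved, a replicate block, normexp background correction or the floor added (limma, adjusted p = 0.0551 to 0.0916). On Affy, P2ry14 did not pass the test with T in NOD mice (0.44, limma, adjusted p = 0.646).

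P2rx1, the gene of a fast ATP-gated channel of smooth muscle and platelets, read 1.35, 1.38 and 1.60 on CL in NOD T pools, against 2.63, 3.08 and 2.00 in NOD placebo pools. All T pools lay below the placebo pools, and the fall was 0.81 on the log2 scale (limma, adjusted p = 0.0398). The call was lost when any 1 of 8 pools was left out, namely NOD T pools 1, 2 or 3, NOD placebo pools 1 or 2, MRL/lpr T pool 1 or MRL/lpr placebo pools 2 or 3, with an adjusted p of 0.0504 to 0.133 (limma), and also with the floor halved, a replicate block or NOD groups alone (limma, adjusted p = 0.0615 to 0.0715). P2rx1 read 1.33, 0.945 and 1.496 in MRL/lpr T pools, all near background, against 1.71, 2.35 and 2.08 in MRL/lpr placebo pools. Those T pools were also all lower, a difference that was not called (limma, adjusted p = 0.0812). On Affy P2rx1 reached the floor in 5 of 12 pools, with 1 NOD T pool and 0 NOD placebo pools among them, so it gives no second measurement of the fall in NOD mice. P2rx6, the other gene called lower in NOD mice, and P2rx5, called higher in MRL/lpr mice, were near background in every CL pool, and no fold change is given for them. P2rx6 passed the filter on dim probes only through its NOD placebo mean of 1.158, and P2rx5 only through its MRL/lpr T mean of 0.884. Calls of these genes that involve those groups, and the counts that hold them, are not independent of the filter. On Affy 1 gene of the list rose with T in MRL/lpr mice, the ATP-gated channel gene P2rx4 (0.71, limma, adjusted p = 0.0443), which was named after its value was seen.

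The list of 18 genes for making and removing ligands had 10 tested on CL and 12 on Affy. It included the neuropeptide genes Tac1 and Npy, whose products bind other receptors than the 9 described here. On CL 1 rose and 1 fell with T in each strain, and on Affy 1 rose with T in MRL/lpr mice. Tac1, which encodes the neuropeptide substance P, was the gene that fell. Its CL signal was 1.65, 2.00 and 2.35 in NOD T pools, against 4.60, 5.61 and 5.01 in NOD placebo pools. It was 10.2, 10.99 and 15.2 in MRL/lpr T pools, against 27.2, 32.03 and 19.5 in MRL/lpr placebo pools. No groups overlapped, and Tac1 fell by 1.36 with T in NOD and by 1.11 in MRL/lpr mice on the log2 scale (limma, adjusted p = 0.00171 and 0.00855). NOD pools were 5.08-fold lower than MRL/lpr pools under placebo (limma, adjusted p = 7.9e-05). These CL calls held under every alternative. On Affy the strain difference under placebo was also called (-1.95, limma, adjusted p = 5.5e-05), and those with T were not (-0.70 in NOD and -0.64 in MRL/lpr mice, limma, adjusted p = 0.0874 and 0.131).

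Dbh, the enzyme that makes noradrenaline, was the gene of this list that rose on CL, where the platforms gave different answers. Its CL signal was 42.5, 34.1 and 40.2 in NOD T pools, against 24.4, 7.49 and 20.1 in NOD placebo pools. It was 57.7, 71.9 and 97.1 in MRL/lpr T pools, against 38.2, 26.4 and 25.8 in MRL/lpr placebo pools. All T pools were above the placebo pools of their strain. The log2 differences were 1.33 in NOD and 1.32 in MRL/lpr mice (limma, adjusted p = 0.0326 and 0.0423). On Affy they were -0.13 and -0.06 (limma, adjusted p = 0.873 and 0.938), so a rise of Dbh rests on the CL probe alone. The CL call in NOD mice was lost without NOD T pool 1, 2 or 3 or NOD placebo pool 2 (limma, adjusted p = 0.0622 to 0.0912), and with no filter or NOD groups alone (limma, adjusted p = 0.0716 and 0.0913). Without NOD placebo pool 2 the difference was 0.81. The call in MRL/lpr mice was lost without any NOD T pool, without MRL/lpr T pool 2 or 3 and without any MRL/lpr placebo pool (limma, adjusted p = 0.054 to 0.139), and with quantile normalization, the floor halved or no filter (limma, adjusted p = 0.0501 to 0.0917). On Affy the neuropeptide gene Npy read 235, 174 and 147 in MRL/lpr T pools, against 57.3, 7.77 and 63.05, all under the floor, in MRL/lpr placebo pools. Npy was called at least 2.58-fold higher with T (limma, adjusted p = 0.0183), while on CL it was near background in every pool. The call was lost without MRL/lpr T pool 1 or any MRL/lpr placebo pool (limma, adjusted p = 0.0573 to 0.0672), with the floor halved or added (limma, adjusted p = 0.0537 and 0.0615), and with the floor doubled, where the log2 difference was 0.37 (limma, adjusted p = 0.192).

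Of 22 genes of the Gq and calcium arm, 10 were tested on CL and 17 on Affy. On CL 1 fell with T in each strain, and on Affy 2 rose with T in each strain. Prkcb encodes a protein kinase C that is activated by calcium and diacylglycerol and is abundant in B cells. Its Affy signal was 281, 513 and 282 in NOD T pools, against 32.2, 96.8 and 133 in NOD placebo pools. It was 254, 219 and 210.0 in MRL/lpr T pools, against 325, 351 and 208 in MRL/lpr placebo pools. All NOD T pools lay above the NOD placebo pools, while the MRL/lpr groups overlapped. Prkcb rose 3.55-fold with T in NOD mice (log2 difference 1.83, limma, adjusted p = 0.0035), a call that held under every alternative. On CL, Prkcb was near background in all 12 pools.

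Itpr3, the gene of an inositol trisphosphate receptor through which acinar calcium stores open, rose with T in both strains on Affy. It read 1239, 1043 and 1125 in NOD T pools, against 672, 850 and 507 in NOD placebo pools. Its signal was 1010, 1377 and 1364 in MRL/lpr T pools, against 601, 503 and 566 in MRL/lpr placebo pools. No T pool overlapped the placebo pools of its strain. The folds were 1.71 in NOD (limma, adjusted p = 0.0365) and 2.23 in MRL/lpr mice (limma, adjusted p = 0.00383). The call in NOD mice was lost without NOD T pool 2 or 3, NOD placebo pool 1 or 3 or MRL/lpr placebo pool 3 (limma, adjusted p = 0.0531 to 0.153). It was also lost with quantile normalization, a replicate block, NOD groups alone, each array scaled to its median or eBayes without a trend, and the call in MRL/lpr mice held when any single pool was left out.

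Prkca, another calcium-dependent protein kinase C, differed between the strains on CL. It read 0.401, 0.517 and 0.481 in NOD T pools and 0.907, 0.875 and 0.290 in NOD placebo pools, all near background. It read 1.68, 1.10 and 1.51 in MRL/lpr T pools and 2.49, 2.56 and 2.66 in MRL/lpr placebo pools. All 3 MRL/lpr placebo pools were above background, and only 1 of the 3 MRL/lpr T pools was. NOD pools lay at least 1.86-fold below MRL/lpr pools under placebo (limma, adjusted p = 0.000672). They were also called lower under T (limma, adjusted p = 0.00173), where no fold is given. Both calls held under every alternative. The fall of 0.87 with T in MRL/lpr mice (limma, adjusted p = 0.0383) was lost without NOD T pool 1 or 2, MRL/lpr T pool 2 or 3 or any MRL/lpr placebo pool (limma, adjusted p = 0.0548 to 0.131), and with the floor halved or added, no filter or a replicate block (limma, adjusted p = 0.054 to 0.237). Its size rests on T pools of which 2 were near background. On Affy no Prkca difference passed the test.

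Stim1 encodes the sensor of calcium stores in the endoplasmic reticulum, and it was the gene called lower on CL with T in NOD mice, where both groups lay near background and the call was lost without NOD T pool 2 or 3 or NOD placebo pool 3 (limma, adjusted p = 0.0801 to 0.089), and with the floor doubled, NOD groups alone or normexp (limma, adjusted p = 0.0578 to 0.623). On CL it read 0.668, 0.259 and 0.397 in NOD T pools, all near background, against 1.88, 1.58 and 2.06 in MRL/lpr T pools. NOD T pools were at least 1.83-fold lower than MRL/lpr T pools (limma, adjusted p = 0.000414), a call that held under every CL alternative, and the Affy difference was -1.89 (limma, adjusted p = 0.0036). On Affy Stim1 also rose with T in MRL/lpr mice (1.46, limma, adjusted p = 0.0241), which was lost without MRL/lpr T pool 2 or 3 or MRL/lpr placebo pool 2 or 3 (limma, adjusted p = 0.0603 to 0.128), and with the floor halved or no filter (limma, adjusted p = 0.0562 and 0.0555). Of its MRL/lpr placebo pools only pool 1, at 194, reached the floor, with the others at 26.4 and 26.6, and without that pool the difference was 1.94 (limma, adjusted p = 0.00198).

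Of 20 genes of the Gs and cAMP arm, 12 were tested on CL and 14 on Affy. With T in NOD mice 1 fell on CL, and 1 rose and 1 fell on Affy, while in MRL/lpr mice 1 rose and 1 fell on CL. On Affy 0 of 14 were called by limma with T in MRL/lpr mice (4 at an unadjusted p under 0.05, and 2 by the methods' t-test). Adcy7 encodes an adenylyl cyclase that is prominent in blood cells. Its Affy signal was 417, 807 and 725 in NOD T pools, against 293, 278 and 205 in NOD placebo pools. It was 208, 120.1 and 230.3 in MRL/lpr T pools, against 275, 402 and 352 in MRL/lpr placebo pools. T pools were higher than placebo pools in NOD mice and lower in MRL/lpr mice, without overlap. NOD T pools were 3.49-fold above MRL/lpr T pools (limma, adjusted p = 0.00305), which held under every alternative. The rise with T in NOD mice (1.29, limma, adjusted p = 0.0237) was lost without NOD T pool 2 or 3 or NOD placebo pool 2 or 3 (limma, adjusted p = 0.061 to 0.107), and with quantile normalization, no filter or each array scaled to its median (limma, adjusted p = 0.0742, 0.0546 and 0.0845).

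Adcy2, another adenylyl cyclase gene, moved the other way on Affy. It read 241, 70.0 and 103 in NOD T pools, against 446, 311 and 355 in NOD placebo pools. All T pools were lower, and the difference of -1.60 (limma, adjusted p = 0.0143) was lost without NOD T pool 2 or 3 or NOD placebo pool 1 (limma, adjusted p = 0.0501 to 0.0772), and with no filter or NOD groups alone (limma, adjusted p = 0.0548 and 0.0627). Adcy2 read 174, 298 and 242 in MRL/lpr T pools, against 549.5, 592 and 556 in MRL/lpr placebo pools. Those T pools were also all lower, by 1.28 on the log2 scale, which did not pass the test (limma, adjusted p = 0.0603). Prkar2b, which encodes a regulatory subunit of the cAMP-dependent protein kinase, was the gene called lower on CL. It read 1.498, 1.04 and 1.08 in NOD T pools, against 2.13, 2.04 and 2.48 in NOD placebo pools. Its differences were -0.89 in NOD and -0.76 in MRL/lpr mice (limma, adjusted p = 0.0179 and 0.049). The call in NOD mice was lost without NOD T pool 2 or 3 or NOD placebo pool 3 (limma, adjusted p = 0.0561 to 0.0708), and the call in MRL/lpr mice was lost without any 1 of 10 pools, all except NOD T pool 1 and MRL/lpr placebo pool 2 (limma, adjusted p = 0.0508 to 0.164), and with quantile normalization, the floor halved or added, a replicate block or MRL/lpr groups alone (limma, adjusted p = 0.0518 to 0.0826). Creb1, the gene of a transcription factor that this kinase activates, was the gene called higher in MRL/lpr mice, but it was near background in every CL pool.

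Among 14 genes that switch off activated receptors, 9 were tested on CL and 11 on Affy. With T in NOD mice 2 rose on Affy and 0 of 9 were called by limma on CL (1 at an unadjusted p under 0.05, and 1 by the methods' t-test). With T in MRL/lpr mice 1 rose on Affy and 1 fell on CL. Arrb2 encodes β-arrestin 2, which uncouples phosphorylated receptors from their G proteins. Its Affy signal was 609, 795 and 606 in NOD T pools, against 144, 127 and 182 in NOD placebo pools. It was 193, 34.9 and 154 in MRL/lpr T pools, against 360, 345 and 201 in MRL/lpr placebo pools. All NOD T pools lay above all other pools, and in MRL/lpr mice the T pools lay below the placebo pools. Arrb2 rose 4.45-fold with T in NOD mice (log2 difference 2.15, SE 0.39, limma, adjusted p = 0.00149), and NOD T pools differed from MRL/lpr T pools by 2.38 (limma, adjusted p = 0.000882). These calls held under every alternative. On CL, the brightest probe with the symbol Arrb2 was above background in 1 of 12 pools, an NOD T pool. The study itself lists arrestin β2 among the genes raised by T in NOD mice on CL. No symbol is listed for 6063 CL probes, and whether the study read another probe was not tested. The probe read here thus does not settle whether CL measures the rise.

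Grk5 encodes a kinase that phosphorylates active receptors. On CL it read 0.859, 0.838 and 0.637 in NOD T pools, against 0.539, 0.708 and 0.668 in NOD placebo pools, all near background. It was 0.928, 0.933 and 0.406 in MRL/lpr T pools, also near background, against 1.51, 1.69 and 2.00 in MRL/lpr placebo pools. Only the MRL/lpr placebo pools were above background. Grk5 fell at least 1.34-fold with T in MRL/lpr mice (limma, adjusted p = 0.00897) and was at least 1.24-fold lower in NOD than in MRL/lpr placebo pools (limma, adjusted p = 0.00392), and both calls held under every alternative. Rgs1, a regulator of G protein signalling abundant in lymphocytes, was the other gene that rose on Affy in NOD mice (1.59, limma, adjusted p = 0.0348), a call lost without any NOD T pool, NOD placebo pool 2 or 3 or MRL/lpr placebo pool 3 (limma, adjusted p = 0.0512 to 0.15), and with quantile normalization, the floor halved or added or no filter (limma, adjusted p = 0.0555 to 0.107). Rgs16, of the same family, read 117, 163 and 266.5 on Affy in MRL/lpr T pools, against 54.4, 9.32 and 64.15, all under the floor, in MRL/lpr placebo pools. It was called at least 2.43-fold higher with T (limma, adjusted p = 0.0157). The call was lost without any MRL/lpr placebo pool (limma, adjusted p = 0.0543 to 0.0595) and with the floor doubled, where the log2 difference was 0.37 (limma, adjusted p = 0.239). In NOD mice Rgs16 was also higher in all T pools, at 104 to 126 against 20.3 to 28.5 in placebo pools, all under the floor, but was not called. On CL, neither Rgs1 nor Rgs16 was above background in any pool.

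**Figure D4:**
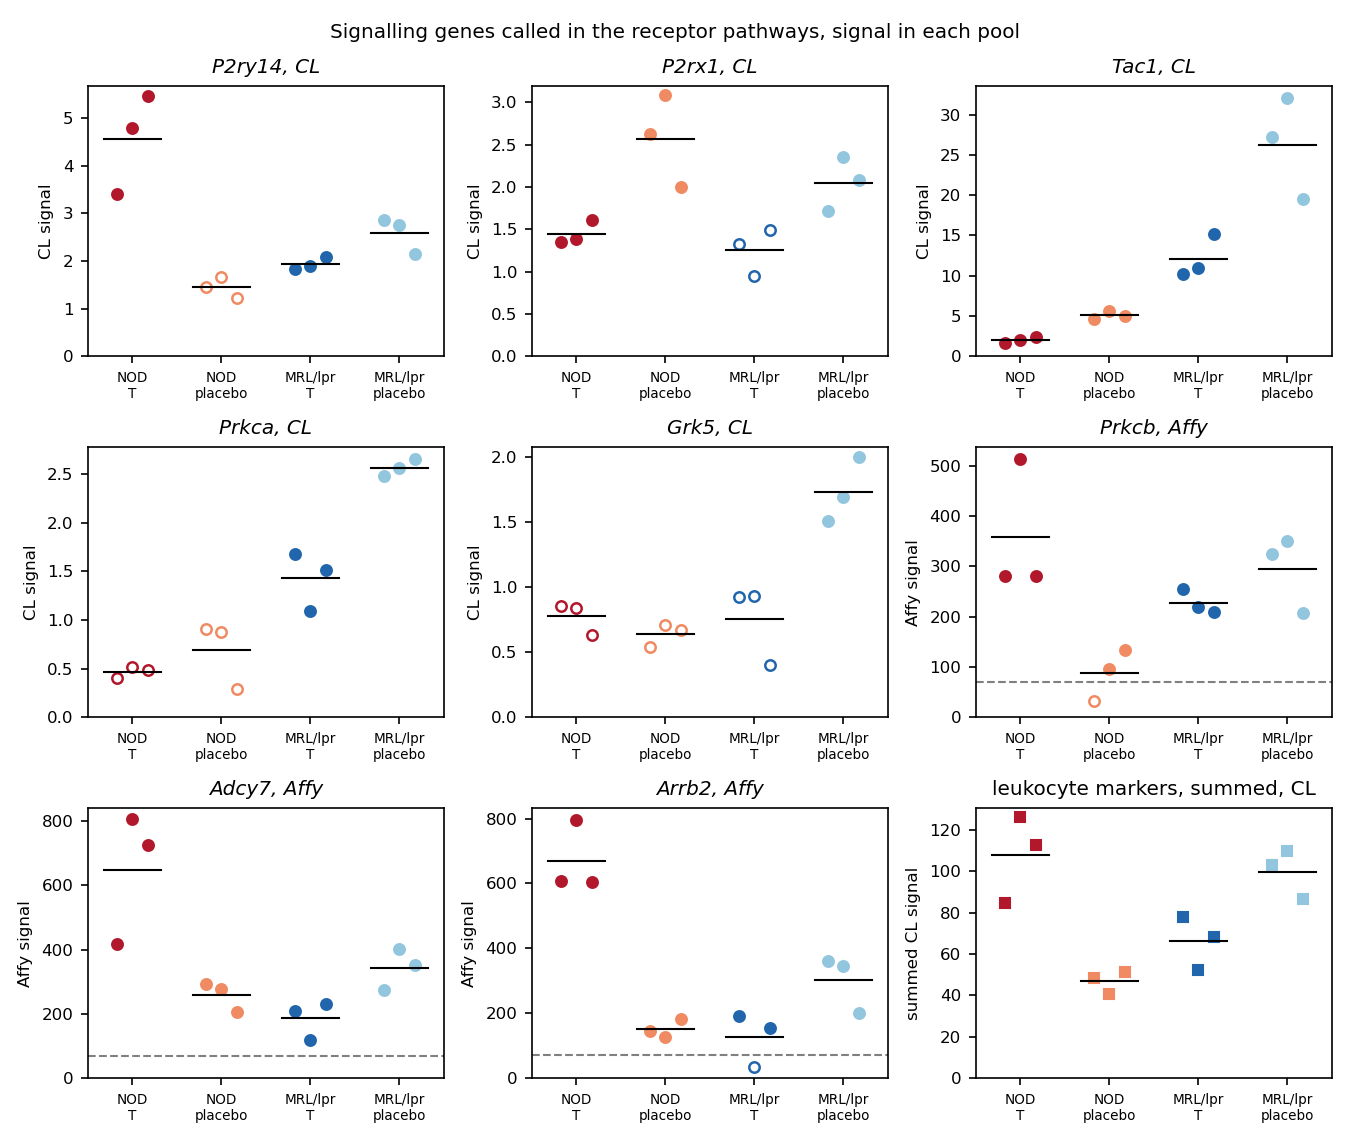
Signal of 8 signalling genes in each pool, with the summed signal of leukocyte markers on CL in the last panel. Points are pools and black bars group means, and open points mark a CL group with every spot near background or an Affy signal under the floor (dashed line). NOD T pools are the highest for P2ry14, Adcy7 and Arrb2, while NOD pools are the lowest for Tac1 and Prkca.

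Leukocyte markers moved in the same comparisons. With T in NOD mice 9 of the 13 tested on CL and 12 of the 16 on Affy rose, beside 8.59% and 6.52% of all genes. With T in MRL/lpr mice 5 of the 13 fell on CL and 3 of the 16 on Affy, beside 6.45% and 3.87% of all genes. Their summed CL signal was 84.7 to 126 in NOD T pools, against 40.6 to 51.1 in NOD placebo pools, and 52.2 to 77.9 in MRL/lpr T pools, against 86.4 to 109.6 in MRL/lpr placebo pools. The defining myeloid marker Itgam was near background in every CL pool. Within each strain the sums ran in the same order as the group means of P2ry14, Adcy7, Prkcb and Arrb2, whereas P2rx7 was lower in NOD T pools, where the sum was higher. The part of leukocytes in these differences was not tested.

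Markers of myoepithelial cells, the contractile cells around the acini, ran the other way in NOD mice, where 4 of 6 tested on CL and 4 of 8 on Affy fell with T, beside 8.56% and 4.05% of all genes. With T in MRL/lpr mice 0 of 6 fell on CL and 3 of 8 on Affy, beside 6.45% and 3.87% of all genes. Their summed CL signal was 28.6 to 41.1 in NOD T pools, against 63.0 to 77.3 in NOD placebo pools, and 68.6 to 71.9 in MRL/lpr T pools, against 86.2 to 108 in MRL/lpr placebo pools. The groups' sums did not overlap within a strain. The signals of P2rx7, P2rx1 and Prkar2b were lower with T in NOD mice as well, and the part of myoepithelial cells in them was not tested. Adipocyte markers were mixed, with 2 of 5 tested on CL lower and 1 higher with T in NOD mice, beside 8.56% and 8.59% of all genes. In MRL/lpr mice 2 of 5 were lower on CL, beside 6.45%. On Affy 0 of 5 were called with T in either strain (limma, 2 in NOD and 1 in MRL/lpr mice at an unadjusted p under 0.05). The part of adipocytes was not tested either. Of the acinar markers, Slc12a2, the gene of the chloride-loading cotransporter NKCC1, fell 3.04-fold on CL and 2.57-fold on Affy with T in NOD mice (limma, adjusted p = 0.00294 and 0.000138). In all, 2 of the 8 tested on CL and 3 of the 9 on Affy fell, beside 8.56% and 4.05% of all genes. Slc12a2 was also lower in all MRL/lpr T pools, at 3.75 to 7.14 on CL against 12.4 to 16.0 in MRL/lpr placebo pools. With T in MRL/lpr mice 1 acinar marker rose and 1 fell on CL, beside 6.62% and 6.45% of all genes, and 2 rose and 1 fell on Affy, beside 3.56% and 3.87%. The markers also differed by platform, since Lcn3 averaged 7.49 in NOD T and 42.4 in NOD placebo pools on CL, but 258 and 165 on Affy. The summed CL signal of acinar markers was 2232 to 3179 in NOD T pools, against 1720 to 3733 in NOD placebo pools, so these groups overlapped. The part of the acinar cells in the P2rx7 values was not tested.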

How the data were processed

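RNA of pooled exorbital lacrimal glands was hybridised by the authors to CodeLink UniSet Mouse 20K I (CL) and GeneChip Mouse Genome 430A 2.0 (Affy) arrays. For CL, the deposited intensities had been normalised by the authors to an array median of 1 and carry a quality mark for each spot. The deposited Affy values are probe set intensities from the Affymetrix software (GCOS in the submitters' notes). Their trimmed means ran between 22.1 and 150.0, so arrays were brought here to a common 2% trimmed mean of 500 (factors 3.33 to 22.6). The factors were 3.33 to 11.6 on NOD T, 6.06 to 11.1 on NOD placebo, 15.8 to 22.6 on MRL/lpr T and 11.1 to 15.5 on MRL/lpr placebo arrays. The floor thus stands for a lower deposited signal on MRL/lpr T than on NOD T arrays. Genome build and probe sequences are not given in the sources used here. Genes were named through the platform annotation, which gave 1 symbol to 11377 of 17440 CL probes and to 20393 of 22690 Affy probe sets (691 had several and 1606 none).

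Spots marked as contaminated, irregular or masked were left out. Signals were raised to a floor, 0.5 on CL and 70.5 on Affy (0.5 of the platform median), and log2 values were fitted with limma (3.58.1; R 4.3.3) as 4 group means over the 12 arrays of a platform, with eBayes and an intensity trend. Probes with at least 1 group mean above the floor were tested, and p-values were adjusted by Benjamini-Hochberg over all of them (threshold 0.05). The scripts were tested on simulated data. Other steps used pandas 2.3.3, scipy 1.17.1 and numpy 2.4.6 in Python 3.11.15. The number of arrays limits the precision. Pools held different mice, and a pool's number did not pair samples across groups. The methods' t-test, unadjusted on values without log, was run as an alternative, beside other floors, filters, normalizations and left-out pools.

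A group whose CL spots were all marked near background, or whose Affy signals all lay under the floor, gave only a bound: folds against it are written as "at least", set against the higher of its own signal and each array's lowest signal above background (on Affy, the floor), and no fold is given where both groups were so. Named genes are all receptor probes and, of each signalling list, up to 4 called genes by smallest adjusted p. Of the genes most like a receptor, 3 are named only for Adra1b and P2rx7, since the other receptors lay mostly at the floor. The receptors and all lists were chosen with earlier results of these data known.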

Additional observations from a re-analysis of the deposited data

Results flagged for a closer look

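Genes of the receptors' signalling lists are given here because the effect of T differed between NOD and MRL/lpr mice by a test of that difference itself, the limma interaction, with adjusted p under 0.05. None of the receptors was among them, with the adjusted p of this test at 0.659 for P2rx7 and 0.976 for Adra1b by limma. On the log2 scale the effect of T in NOD minus that in MRL/lpr mice was 3.35 for Arrb2 on Affy (limma, adjusted p = 0.00144) and 2.05 for P2ry14 on CL (limma, adjusted p = 0.00227), and both held under every alternative run. It was 2.21 for Adcy7 on Affy (limma, adjusted p = 0.0143), which was lost without MRL/lpr placebo pool 2 (limma, adjusted p = 0.0522). It was 2.17 for Prkcb on Affy (limma, adjusted p = 0.0248), lost without NOD T pool 2, NOD placebo pool 1 or 2, MRL/lpr T pool 2 or 3 or MRL/lpr placebo pool 1 or 2 (limma, adjusted p = 0.0548 to 0.0838), and with no filter or each array scaled to its median (limma, adjusted p = 0.0514 and 0.0536).

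On CL it was 1.47 for Grk5 (limma, adjusted p = 0.0274), lost without NOD T pool 1 or 2, NOD placebo pool 1 or MRL/lpr placebo pool 2 or 3 (limma, adjusted p = 0.0584 to 0.0698) and with the floor halved (limma, adjusted p = 0.0813). Only the MRL/lpr placebo pools of Grk5 were above background, so that the size depends on the floor. It was -1.49 for Stim1 (limma, adjusted p = 0.0169), where both NOD groups lay near background, and -0.76 with the floor doubled, which lost the call (limma, adjusted p = 0.0544). The fit also gave -0.81 for P2rx5 (limma, adjusted p = 0.0198) and -0.94 for Creb1 (limma, adjusted p = 0.046). Both genes were near background in all 12 CL pools, so these are differences between bounds and not measured effects, and their size follows the floor. With the floor halved the P2rx5 value was -2.01, and with it doubled the Creb1 value was -0.11. P2rx5 passed the filter on dim probes only through its MRL/lpr T mean of 0.884, so its call is not independent of the filter. The Creb1 call was lost under 18 of 22 alternatives: without any 1 of 10 pools, all except NOD placebo pool 1 and MRL/lpr T pool 1 (limma, adjusted p = 0.0543 to 0.116), and with quantile normalization, the floor halved, doubled or added, no filter, eBayes without a trend, a replicate block or normexp (limma, adjusted p = 0.0521 to 0.583).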

How the results depend on the processing

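The count of receptors called was 0 in each of the 10 platform and comparison pairs and stayed 0 in 230 of 232 values under alternatives, including all 120 that left out 1 pool. It became 1 with the methods' t-test, for P2rx7 with T in NOD mice on CL, and 1 with Affy signals as deposited, for Vipr2 between NOD and MRL/lpr mice under T (log2 difference 0.97, limma, adjusted p = 0.0158, against -0.49 after scaling). That last setting moved the platform's median difference to 1.52, and 12937 were called higher and 36 lower, against 964 and 934 after scaling. With T in NOD mice the deposited signals gave 1989 higher and 49 lower, against 989 and 660, and with each array scaled to its median the strain comparison under T gave 1205 and 500, and that under placebo 339 and 397 against 318 and 637. The replicate block, with the pool number as a factor, also gave 0 receptors; same-numbered pools correlated at only -0.0734 to 0.106 in their deviations, so pairing is not shown.

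Leaving out 1 pool at a time moved the Adra1b difference between the effects of T between -0.24 and 0.15, across 0, and the P2rx7 strain difference under placebo between -0.068 and 0.29, so that the sign of each depended on single pools. With signals as deposited, the Stim1 strain difference under T on Affy was 0.0094 (limma, adjusted p = 0.997). The scale factors left out in that setting were 3.33 to 11.6 on NOD T and 15.8 to 22.6 on MRL/lpr T arrays. The cause of the changes with a left-out pool, and of the group differences in scale, was not tested. Of 61 single results, 602 values under other settings stayed on their side of the threshold with the same direction, 82 lost a call, 1 gained one and 1 reversed. Among the values without 1 pool, 599 stayed, 125 lost a call and 8 reversed. An alternative chosen after seeing the data, adding the floor in place of raising to it, lost 9 calls. Signal over background limits what can be seen of Chrm1, Chrm3, Vipr1, Vipr2 and P2ry2, and of P2rx7, which lay close to the limit on CL in some T pools of both strains.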
